A study of Mus musculus with 12 samples.

Results

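MLO-Y4 is a mouse cell line with the shape and several markers of osteocytes, the cells embedded in bone matrix that sense load. The genes described here are those whose mean shifted the same way, and by a like amount, in all 3 groups of cells cultured inside a large gradient, high field superconducting magnet (LG-HMF). The magnet groups are μ-g (12 T), 1-g (16 T) and 2-g (12 T), which differ in the apparent gravity at their place in the bore, and the control was kept in normal earth gravity outside the magnet; all 4 groups were cultured for 48 h at the same set temperature and CO2 supply, with 3 Affymetrix Mouse Gene 1.0 ST arrays each. The 3 arrays of a group are labelled as biological replicates, with no word on separate cultures, so p-values measure the spread between these arrays, which may be technical. MLO-Y4 is 1 immortalised line, and its cells held high levels of Pdpn (12.2 on the log2 scale), Gja1 (12.1) and Cd44 (10.7), while the defining genes of mature osteocytes Dmp1 (5.63), Mepe (5.11) and Phex (5.43) lay at the low end of the range and Sost (7.30) and Fgf23 (6.88) near the array medians of 7.04 to 7.12.

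Members were selected on the group means of the deposited log2 values. A gene was kept if its mean over the 12 arrays was above 6.5, if the μ-g, 1-g and 2-g means each lay at least 0.25 (1.19-fold) below the control mean or each at least 0.25 above it, and if the 3 magnet means spanned less than 0.5. Of 19938 genes measured by a transcript cluster of 1 symbol, 12809 were above 6.5, and 132 of these met the rule. They are 35 genes lowered in the magnet and 97 genes raised in it. Because the magnet v.s. control differences and the span between magnet groups chose the genes, these values are given as a description and with no test, and the 3 differences of a gene share the same 3 control arrays. An SE, where given, is that of a difference between group means from the fit of all 12 arrays (n = 3 arrays per group). It is equal for the 3 differences of a gene. Mean shifts over the magnet groups, other clusters of a gene and some relatives are given without an SE. The magnet bore and the incubator, and the field itself, cannot be told apart with these groups.

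**Figure D1:**
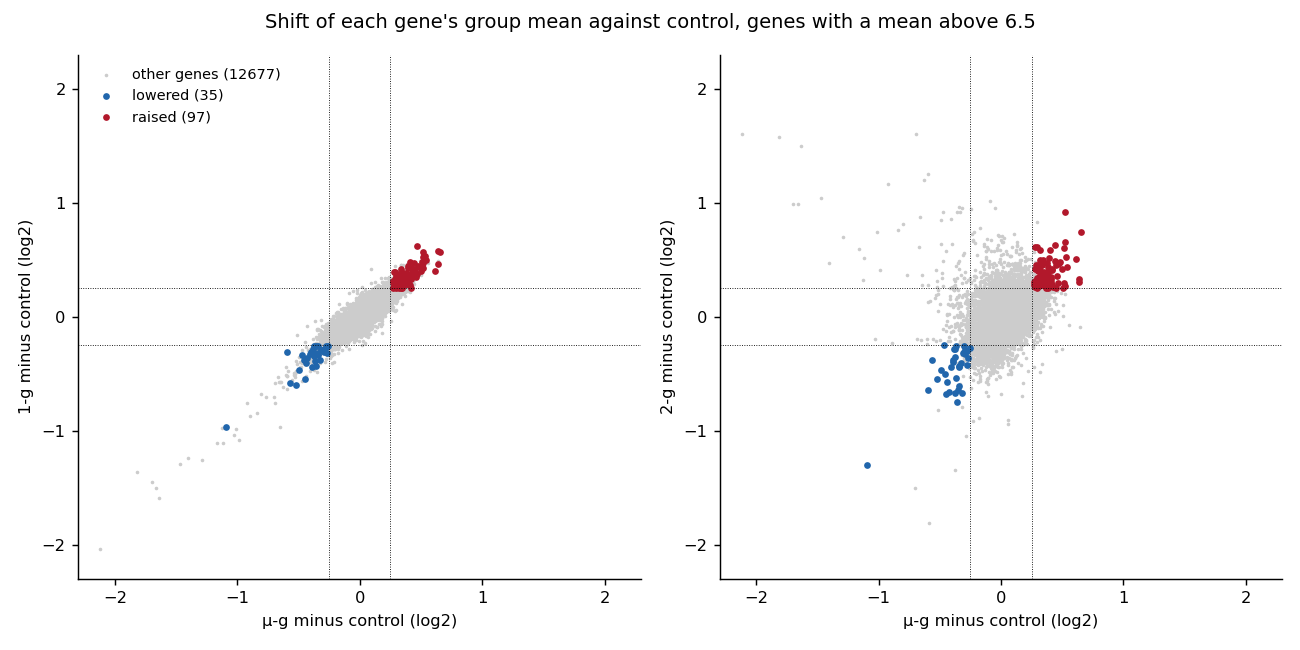
Shift of the group mean against control, in log2 units, for the 12809 genes above 6.5: μ-g on the x axis of both panels, 1-g (left) and 2-g (right) on the y axis, with dotted lines at −0.25 and 0.25. The 35 lowered genes lie in the lower left corner and the 97 raised genes in the upper right corner of both panels, with Crct1 the farthest member at −1.09 in μ-g and −1.30 in 2-g.

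Several kinds of gene were among them. The lowered genes included both cold-inducible RNA-binding proteins, Cirbp and Rbm3, which are known to rise in mammalian cells at mild cold and to bind and stabilise mRNA. They also included a microRNA hairpin of the miR-17-92 transcript, genes of innate immune cells (S100a8, Il1rn, Clec4d, Plaur) and the stress genes Ddit3 and Nqo1. The raised genes included interferon-induced genes (Oas2, Oas3, Eif2ak2, Sp100) and genes listed as targets of the tumour suppressor p53 (Ccng1, Sesn1, Sesn3, Trp53inp1, Polk). Also raised were secreted acute phase and coagulation proteins (Saa2, Saa4, C4b, Pros1), proteoglycan genes (Vcan, Agrn) and genes of the spindle, the centriole and the cilium. These shifts were small. The mean shift over the 3 magnet groups had a median of −0.37 in the lowered and 0.35 in the raised genes, against 0.02 over all genes above 6.5, and only Crct1 shifted by more than 1.

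MicroRNAs are cut from a hairpin in a longer transcript, and the seed, bases 2 to 8 of the mature strand, is the part that pairs with target mRNAs. Mir18 encodes miR-18a and lies on mouse chromosome 14 in the miR-17-92 transcript (host gene Mir17hg), which is known for its growth-promoting hairpins. The array reads the hairpin or its primary transcript and not the mature strands. Both mature strands of Mir18 are shown from RefSeq (GRCm38.p6), with 1 strand each of its neighbours Mir17 and Mir19a, in order along the transcript and with the seed in capitals, to set the member beside the hairpins that flank it. Mir20a shares the seed of miR-17-5p and Mir19b-1 that of miR-19a-3p, whereas neither seed of miR-18a occurs in the other strands listed for these hairpins.
mmu-miR-17-5p: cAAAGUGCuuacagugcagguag
mmu-miR-18a-5p: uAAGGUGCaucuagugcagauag
mmu-miR-18a-3p: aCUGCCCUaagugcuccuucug
mmu-miR-19a-3p: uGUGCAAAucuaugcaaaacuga
The Mir18 cluster read 7.58, 7.68 and 7.60 in μ-g, 7.50, 7.42 and 7.70 in 1-g, 7.54, 7.61 and 7.63 in 2-g and 8.15, 8.03 and 8.25 in control cells. Every magnet array lay below every control array, with a gap of 0.33 between the nearest, and the shifts were −0.52 in μ-g, −0.60 in 1-g and −0.55 in 2-g (SE 0.08). Mir19a, at an overall mean of 6.47 just under the limit of 6.5, shifted by −0.38 in μ-g, −0.54 in 1-g and −0.43 in 2-g (SE 0.09), and the host Mir17hg, at 6.13, by −0.44 in μ-g, −0.28 in 1-g and −0.31 in 2-g (SE 0.09). For both, the 9 magnet arrays also lay below the 3 control arrays. The other hairpins of the transcript that the array measured stood lower still, Mir17 at 5.50, Mir20a at 5.00 and Mir19b-1 at 5.15, and their mean shifts were 0.03, −0.03 and −0.15; no cluster of 1 symbol measured Mir92-1. Snord52, a small nucleolar RNA, and Snhg16, a host of other small nucleolar RNAs, were also lowered members, at −0.40 in μ-g, −0.31 in 1-g and −0.40 in 2-g (SE 0.10) for Snord52 and −0.29 in μ-g, −0.29 in 1-g and −0.29 in 2-g (SE 0.08) for Snhg16. The lowered Gm5486 and the raised D130007C19Rik (mean shift 0.29) are annotated as noncoding RNA as well, and the raised BC023105 as a pseudogene.

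Crct1, which encodes a cysteine-rich protein of the cornified envelope of skin, was the member with the largest shift. Crct1 read 8.57, 8.02 and 8.57 in μ-g, 8.64, 8.49 and 8.41 in 1-g, 8.33, 7.95 and 8.25 in 2-g and 9.75, 9.01 and 9.68 in control cells. Against control, Crct1 shifted by −1.09 in μ-g, −0.97 in 1-g and −1.30 in 2-g (SE 0.19). The mean over the magnet groups was 2.17-fold below control, and the highest magnet array stood 0.37 below the lowest control array. Of the 24 cornified envelope and keratin genes measured, 8 were above 6.5 and Crct1 was the 1 member.

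Cirbp read 8.41, 8.67 and 8.65 in μ-g, 8.37, 8.85 and 8.48 in 1-g, 8.76, 8.74 and 8.78 in 2-g and 9.01, 9.37 and 9.05 in control cells. Against control, Cirbp shifted by −0.57 in μ-g, −0.58 in 1-g and −0.38 in 2-g (SE 0.12). The lowest control array, replicate 1, was 0.16 above the highest magnet array, replicate 2 of 1-g. Rbm3 has a mean level of 13.3 and shifted by −0.28 in μ-g, −0.25 in 1-g and −0.30 in 2-g (SE 0.07), just inside the limit of 0.25. Rbm3 read 13.17, 13.33 and 13.31 in μ-g, 13.20, 13.45 and 13.24 in 1-g, 13.26, 13.29 and 13.20 in 2-g and 13.50, 13.66 and 13.49 in control cells, so that the lowest control value, 13.49, stood 0.04 above the highest magnet value, 13.45. Of the other clusters that carry the symbol Rbm3, that at 13.2 shifted by −0.27, −0.26 and −0.32 in μ-g, 1-g and 2-g. That at 13.1 shifted by −0.246, −0.23 and −0.28, short of the limit of 0.25 in μ-g and 1-g. Near-identical copies can share the signal of such clusters. In every group the replicate 2 array was the highest of Rbm3. Of 16 heat shock genes measured, which respond to warmth, none was a member. In the mean of the magnet groups 14 of the 16 lay above control, with a median of 0.04 (7362 of 12809 over all genes above 6.5, median 0.02). Their median shift was 0.12 in μ-g, 0.10 in 1-g and 0.03 in 2-g. A part of temperature in these shifts was not tested.

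Catsperz, a subunit of the calcium channel of sperm, read 7.59, 7.90 and 7.70 in μ-g, 7.66, 8.02 and 7.59 in 1-g, 7.74, 7.82 and 7.70 in 2-g and 8.09, 8.29 and 8.28 in control cells. Against control, Catsperz shifted by −0.49 in μ-g, −0.47 in 1-g and −0.47 in 2-g (SE 0.11), with no overlap between magnet and control arrays. Ufsp1, a protease that matures the ubiquitin-like protein UFM1, read 8.32, 8.38 and 8.28 in μ-g, 8.39, 8.43 and 8.38 in 1-g, 8.28, 8.25 and 8.29 in 2-g and 8.64, 8.68 and 9.02 in control cells. Against control, Ufsp1 shifted by −0.45 in μ-g, −0.38 in 1-g and −0.50 in 2-g (SE 0.08). The 9 magnet arrays of Ufsp1 lay within 8.25 and 8.43, and control replicate 3, at 9.02, was far above its 2 fellows. Arrdc4, an α-arrestin whose transcription follows glucose, read 9.66, 9.71 and 9.68 in μ-g, 9.65, 9.72 and 9.53 in 1-g, 9.85, 9.49 and 9.76 in 2-g and 10.13, 9.99 and 10.11 in control cells. Against control, Arrdc4 shifted by −0.39 in μ-g, −0.44 in 1-g and −0.38 in 2-g (SE 0.08). Its relative Arrdc1 lay at −0.24 in μ-g, −0.23 in 1-g and −0.21 in 2-g (SE 0.08) with no overlap, and Arrdc2 at −0.11, −0.17 and −0.05. Txnip and Arrdc3 lay at −0.22 and −0.12 in μ-g and at −0.24 and −0.15 in 1-g, but at 0.14 and 0.62 in 2-g. The remaining pair of the 8 foremost genes overlapped control, as did 15 of the 35 lowered genes. The uncharacterised 4930438A08Rik read 8.44, 7.64 and 7.96 in μ-g, 8.22, 7.92 and 7.63 in 1-g, 8.21, 7.57 and 7.58 in 2-g and 8.96, 8.02 and 8.41 in control cells. Against control, 4930438A08Rik shifted by −0.45 in μ-g, −0.54 in 1-g and −0.68 in 2-g (SE 0.26), and replicate 1 was its highest array in every group. Milr1, an inhibitory receptor of mast cells, read 6.76, 6.94 and 6.43 in μ-g, 6.61, 6.89 and 6.73 in 1-g, 6.49, 6.65 and 6.61 in 2-g and 7.19, 7.38 and 6.89 in control cells. Against control, Milr1 shifted by −0.44 in μ-g, −0.41 in 1-g and −0.57 in 2-g (SE 0.14). Only control replicate 3 of Milr1, at 6.89, lay within the range of the magnet arrays.

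**Figure D2:**
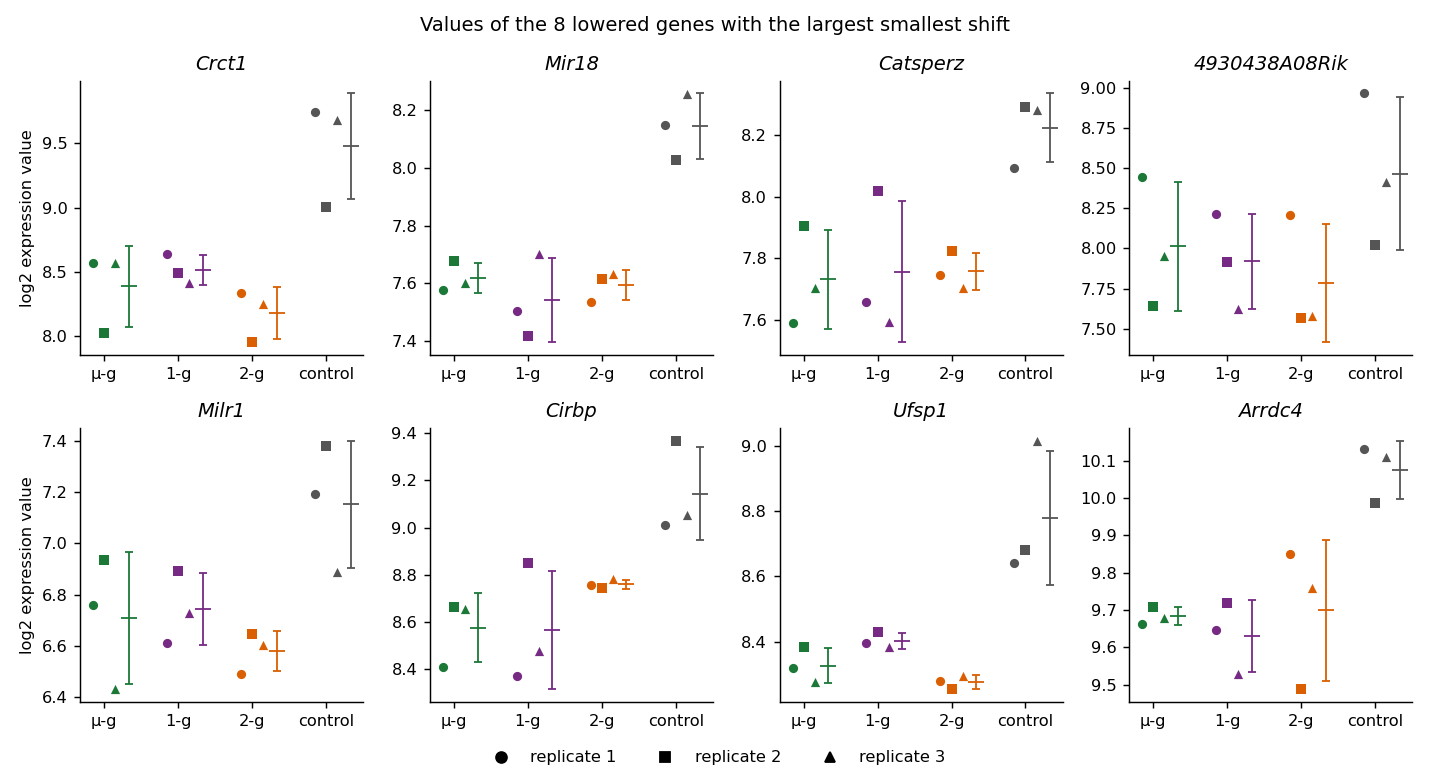
Log2 expression values of the 8 lowered genes with the largest smallest shift, by group (x axis; marker shapes give the replicate number, bars the mean ± SD of 3 arrays). Values in μ-g, 1-g and 2-g lie below control without overlap for 6 of the 8 genes; 4930438A08Rik and Milr1 overlap.

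S100a8, Il1rn, Clec4d and Plaur, genes of innate immune cells, each lay lower in 2-g than in 1-g. S100a8, a calcium-binding alarmin of neutrophils and macrophages, read 8.94, 8.59 and 8.86 in μ-g, 9.20, 9.08 and 8.96 in 1-g, 8.84, 8.76 and 8.67 in 2-g and 9.62, 9.24 and 9.31 in control cells. Against control, S100a8 shifted by −0.59 in μ-g, −0.31 in 1-g and −0.64 in 2-g (SE 0.11). Its relative S100a9, at a level of 6.03, shifted by 0.04 in μ-g, −0.02 in 1-g and −0.05 in 2-g (SE 0.07). Il1rn, the antagonist of the interleukin-1 receptor, shifted by −0.32 in μ-g, −0.29 in 1-g and −0.67 in 2-g (SE 0.08), and its 2-g arrays, at 7.36, 7.30 and 7.32, lay below those of the other magnet groups. Clec4d, a C-type lectin receptor for mycobacterial glycolipid, shifted by −0.36 in μ-g, −0.26 in 1-g and −0.74 in 2-g (SE 0.13). The highest magnet array of Clec4d (7.23) lay above its lowest control array (6.99). Its span of 0.49 was the closest to the limit of 0.5. The genes next beyond that limit were its neighbour in function Clec4e and the chemokine Ccl3, with spans of 0.80 and 0.97. Plaur, the urokinase receptor, read 11.19, 10.64 and 10.97 in μ-g, 11.20, 10.79 and 10.98 in 1-g, 11.01, 10.54 and 10.74 in 2-g and 11.60, 11.01 and 11.31 in control cells. Against control, Plaur shifted by −0.37 in μ-g, −0.32 in 1-g and −0.54 in 2-g (SE 0.17). Its control arrays, from 11.01 to 11.60, overlapped the magnet arrays, but each magnet array lay below the control of its own number. Of 34 inflammatory cytokine and chemokine genes measured, 2 were lowered members. Of the 25 above 6.5, 22 lay below control in the mean of the magnet groups (5447 of 12809 over all genes above 6.5). The median shift of the 34 was −0.06 in μ-g, −0.03 in 1-g and −0.15 in 2-g. By limma with adjusted p under 0.05, 2, 0 and 7 of them were called lower in μ-g, 1-g and 2-g, where 0.386%, 0.145% and 1.43% of all genes were. Markers that define macrophages were low in all groups (Ptprc 5.68, Adgre1 5.46, Itgam 5.87), whereas Cd68 (9.64) and Csf1r (7.23) were not. Of 22 macrophage markers measured, 7 were above 6.5 and 0 were members, and all 7 lay below control in the mean of the magnet groups. Their summed level (log2 of the summed linear values of the 22) was 11.38 to 11.43 in μ-g, 11.35 to 11.47 in 1-g, 11.16 to 11.24 in 2-g and 11.34 to 11.45 in control cells, so that 2-g alone lay below control; its part in these shifts was not tested.

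Nqo1, a quinone reductase and standard target of the transcription factor NRF2, read 11.44, 11.52 and 11.41 in μ-g, 11.40, 11.54 and 11.47 in 1-g, 11.32, 11.36 and 11.27 in 2-g and 11.63, 11.79 and 11.78 in control cells. Against control, Nqo1 shifted by −0.28 in μ-g, −0.26 in 1-g and −0.42 in 2-g (SE 0.06), with 0.10 between the nearest magnet and control arrays. It was the 1 member among 20 NRF2 genes measured, of which 12 of the 19 above 6.5 lay below control (5447 of 12809 over all genes). Ddit3, which encodes CHOP, the transcription factor of unresolved ER stress, shifted by −0.30 in μ-g, −0.30 in 1-g and −0.31 in 2-g (SE 0.12), but its highest magnet array (10.78) lay above its lowest control array (10.71). Sat1, the rate-limiting enzyme of polyamine breakdown, shifted by −0.31 in μ-g, −0.29 in 1-g and −0.32 in 2-g (SE 0.05), and S100b, a calcium-binding protein of glia and cartilage, by −0.43 in μ-g, −0.36 in 1-g and −0.66 in 2-g (SE 0.09). The rest of the 15 foremost lowered genes were Avil, an actin-binding protein of the villin family (mean shift −0.48), Rnase2a, a ribonuclease of eosinophils (−0.46), Arl11, a small GTPase (−0.43), Ropn1l, a protein of the sperm tail (−0.37), and the predicted gene Gm5486 (−0.39). Of these, all but Arl11 overlapped control. The SE of each shift was 0.33 for Avil, 0.24 for Rnase2a and 0.22 for Ropn1l. In these genes the range between replicate numbers, 0.81, 0.62 and 0.60, was larger than the mean shift. Mapk13, the δ form of p38, stood closest to the limit, at −0.25 in 2-g, and Hddc2 (0.249) and Dennd2d (0.248) were just outside it. Zfp580 was the lowered member of the zinc finger family, at −0.34, and Gm4832, at −0.28, was 1 of 3 lowered predicted genes, with 4930438A08Rik and Gm5486.

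Among the raised genes, Htra4, a secreted serine protease, was foremost. Htra4 read 10.81, 10.95 and 10.56 in μ-g, 10.63, 10.61 and 10.81 in 1-g, 10.66, 10.96 and 10.95 in 2-g and 9.67, 10.30 and 10.38 in control cells. Against control, Htra4 shifted by 0.66 in μ-g, 0.57 in 1-g and 0.74 in 2-g (SE 0.17). Psrc1, which binds the microtubules of the mitotic spindle, read 10.52, 10.75 and 10.52 in μ-g, 10.57, 10.75 and 10.47 in 1-g, 10.67, 10.56 and 10.53 in 2-g and 9.98, 10.25 and 9.96 in control cells. Against control, Psrc1 shifted by 0.53 in μ-g, 0.54 in 1-g and 0.53 in 2-g (SE 0.10). Its 3 magnet means, 10.60, 10.60 and 10.59, spanned 0.01, the least of any raised gene, and the lowest of the 9 magnet arrays was 10.47 while the highest control array was 10.25. Both genes kept magnet and control arrays apart.

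Slc5a3, the sodium-coupled transporter of the osmolyte myo-inositol, read 9.49, 8.86 and 8.94 in μ-g, 9.07, 8.98 and 9.14 in 1-g, 9.02, 9.34 and 9.20 in 2-g and 8.66, 8.50 and 8.60 in control cells. Against control, Slc5a3 shifted by 0.51 in μ-g, 0.48 in 1-g and 0.60 in 2-g (SE 0.14), and μ-g replicate 1 stood highest. The uncharacterised D3Ertd751e read 7.60, 7.36 and 7.45 in μ-g, 7.57, 7.64 and 7.67 in 1-g, 7.52, 7.39 and 7.50 in 2-g and 7.02, 7.14 and 6.85 in control cells. Against control, D3Ertd751e shifted by 0.46 in μ-g, 0.62 in 1-g and 0.46 in 2-g (SE 0.08). Magnet and control arrays of both genes were apart, by 0.19 for Slc5a3 and 0.22 for D3Ertd751e. Gem, a small GTPase that restrains voltage-gated calcium channels, read 8.31, 7.82 and 8.10 in μ-g, 7.99, 7.94 and 8.38 in 1-g, 7.85, 8.05 and 8.45 in 2-g and 7.55, 7.56 and 7.78 in control cells. Against control, Gem shifted by 0.44 in μ-g, 0.47 in 1-g and 0.49 in 2-g (SE 0.16), and only 0.04 separated its nearest magnet and control arrays. Cacna2d1, the auxiliary subunit of such channels, was also a raised member, with a mean shift of 0.34.

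The serum amyloid A genes encode acute phase apolipoproteins. Saa4 read 8.82, 8.78 and 7.94 in μ-g, 8.53, 8.61 and 8.55 in 1-g, 8.48, 9.42 and 8.84 in 2-g and 7.64, 8.32 and 8.02 in control cells. Against control, Saa4 shifted by 0.52 in μ-g, 0.57 in 1-g and 0.92 in 2-g (SE 0.26). The μ-g replicate 3 value of Saa4, 7.94, lay within the control range. Saa2 read 7.79, 8.25 and 7.84 in μ-g, 7.59, 8.06 and 8.26 in 1-g, 7.50, 8.30 and 8.50 in 2-g and 7.16, 7.65 and 7.51 in control cells. Against control, Saa2 shifted by 0.52 in μ-g, 0.53 in 1-g and 0.65 in 2-g (SE 0.25). The 2-g replicate 1 value of Saa2, 7.50, lay under the highest control array. Saa3, the form made outside the liver and by far the strongest here (14.0), shifted by −0.06 in μ-g, −0.02 in 1-g and 0.01 in 2-g (SE 0.07), and Saa1 lay at 5.77, under the level limit. C4b, complement component 4B, shifted by 0.45 in μ-g, 0.40 in 1-g and 0.45 in 2-g (SE 0.16) and overlapped; Pros1, protein S, an anticoagulant that needs vitamin K, shifted by 0.38 in μ-g, 0.34 in 1-g and 0.47 in 2-g (SE 0.07) with no overlap. Ggcx, the carboxylase that activates protein S with vitamin K, shifted by 0.28 in μ-g, 0.31 in 1-g and 0.42 in 2-g (SE 0.07). Of these 5 acute phase, complement and coagulation members, a group formed after values were seen, as are the groups by role below, 2 did not overlap, against 62 of the 97 raised genes and 3.68% of genes above 6.5.

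**Figure D3:**
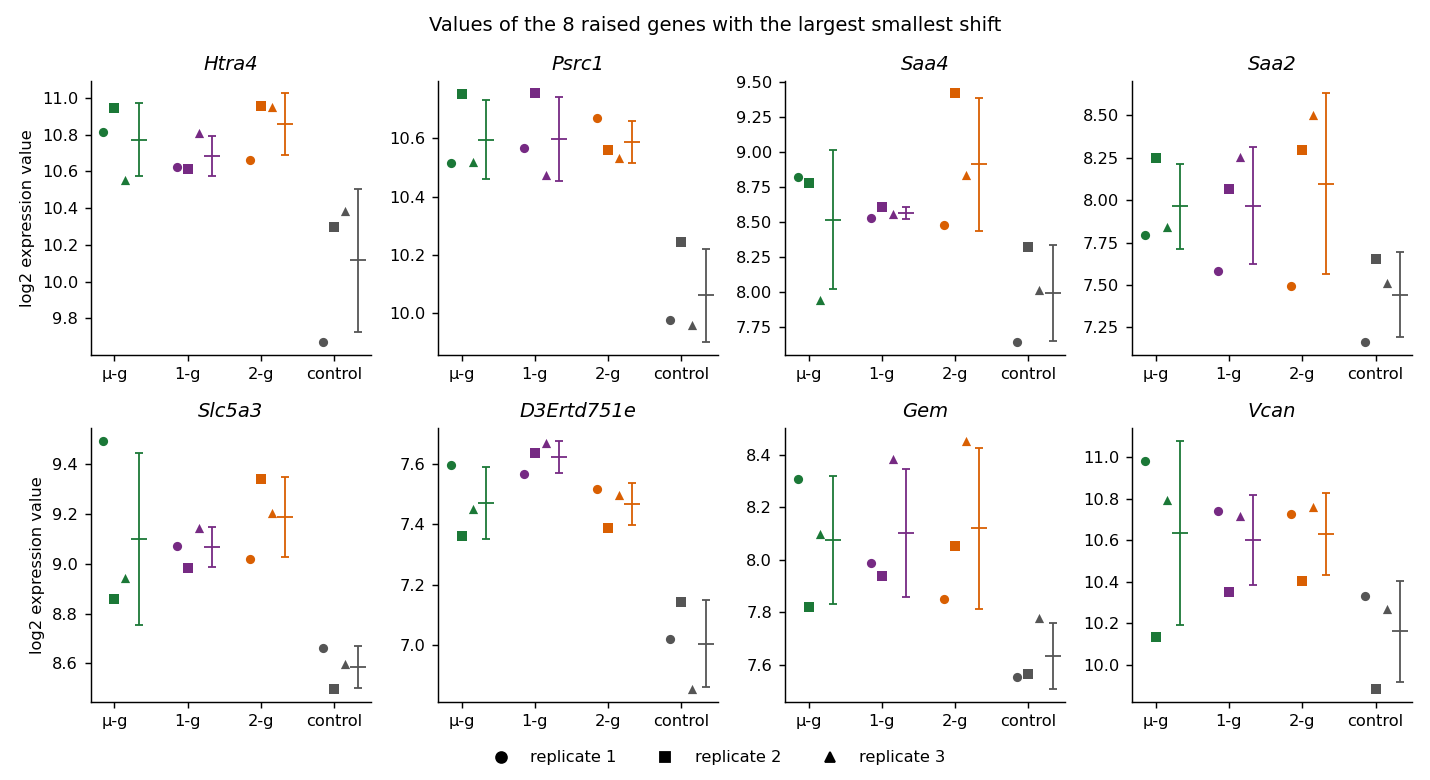
Log2 expression values of the 8 raised genes with the largest smallest shift, by group (x axis; marker shapes give the replicate number, bars the mean ± SD of 3 arrays). Htra4, Psrc1, Slc5a3, D3Ertd751e and Gem show μ-g, 1-g and 2-g arrays above all control arrays; Saa4, Saa2 and Vcan overlap.

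Interferons act through JAK kinases and STAT factors to switch on antiviral genes, many of which carry an interferon-stimulated element in the promoter. Oas2 and Oas3 make the 2-5 oligoadenylate that activates RNase L, and Eif2ak2 encodes PKR, which stops translation on sensing double-stranded RNA. The RefSeq promoter windows (GRCm38.p6, 250 bases before to 50 after the start, in the direction of transcription) of Oas3 and Eif2ak2 are shown because both hold the interferon element searched, GAAANNGAA, on either strand, in capitals. In both windows a pair of matches overlaps.
Oas3 (chr5:120777610-120777909, minus strand): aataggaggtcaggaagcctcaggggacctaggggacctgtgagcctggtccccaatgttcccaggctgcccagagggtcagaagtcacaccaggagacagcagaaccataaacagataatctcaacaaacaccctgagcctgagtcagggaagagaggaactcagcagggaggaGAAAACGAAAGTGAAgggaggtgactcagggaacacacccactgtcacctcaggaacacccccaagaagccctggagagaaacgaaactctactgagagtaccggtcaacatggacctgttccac
Eif2ak2 (chr17:78882523-78882822, minus strand): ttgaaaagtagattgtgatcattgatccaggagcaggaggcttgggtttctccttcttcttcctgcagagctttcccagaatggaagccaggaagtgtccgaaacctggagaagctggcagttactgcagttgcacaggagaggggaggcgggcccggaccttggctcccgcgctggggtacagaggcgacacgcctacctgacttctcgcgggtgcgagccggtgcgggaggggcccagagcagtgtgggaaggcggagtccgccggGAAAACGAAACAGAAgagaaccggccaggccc
Oas2 read 10.62, 11.04 and 10.84 in μ-g, 10.59, 11.09 and 10.97 in 1-g, 10.89, 10.998 and 11.17 in 2-g and 10.24, 10.59 and 10.48 in control cells. Against control, Oas2 shifted by 0.40 in μ-g, 0.45 in 1-g and 0.58 in 2-g (SE 0.14). Replicate 1 was the lowest Oas2 array in every group, and magnet and control arrays were apart by only 0.0048. Oas3 read 9.97, 9.98 and 9.98 in μ-g, 9.95, 10.17 and 10.11 in 1-g, 9.99, 9.84 and 10.09 in 2-g and 9.61, 9.73 and 9.72 in control cells. Against control, Oas3 shifted by 0.29 in μ-g, 0.39 in 1-g and 0.28 in 2-g (SE 0.07), with 0.11 between the nearest arrays. Eif2ak2 shifted by 0.38 in μ-g, 0.29 in 1-g and 0.25 in 2-g (SE 0.09), and Sp100, a nuclear body protein, by 0.41 in μ-g, 0.37 in 1-g and 0.28 in 2-g (SE 0.11). Parp14, Parp11, Ifi203, Helz2 and Mov10 make 9 such members in all, with mean shifts between 0.31 and 0.48 and no overlap in any of the 9 (62 of the 97 raised genes, and 3.68% of genes above 6.5), although Parp14 was apart by only 0.0006. Their list was not uniform: Oasl1 shifted by −0.18 in μ-g, −0.20 in 1-g and −0.42 in 2-g (SE 0.13), Oas1a by 0.02 in μ-g, 0.09 in 1-g and −0.16 in 2-g (SE 0.07) and Oasl2 by 0.21 in μ-g, 0.19 in 1-g and 0.13 in 2-g (SE 0.07). Of the 25 interferon response genes measured from the list, Oas2 and Oas3 were members, and 19 of the 24 above 6.5 lay above control with a median of 0.08 (7362 of 12809 over all genes, median 0.02). By limma with adjusted p under 0.05, 0, 1 and 1 of the 25 were called higher in set 1, set 3 and set 2, the comparisons of μ-g, 1-g and 2-g with control, where 0.436%, 0.176% and 1.68% of all genes were. The element occurred in 8.11% of the 74 raised genes with a promoter window, 11.1% of the 27 lowered genes and 8.06% of genes above 6.5.

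The p53 protein induces cell cycle brakes, repair genes and sestrins, which damp the growth kinase mTORC1. Ccng1, cyclin G1, read 12.28, 12.18 and 12.26 in μ-g, 12.13, 12.32 and 12.13 in 1-g, 12.005, 12.04 and 12.02 in 2-g and 11.70, 11.85 and 11.62 in control cells (SE of each shift 0.07). All 9 magnet arrays were above all control arrays, and the shift in 2-g (0.30) was less than that in μ-g (0.51). Sesn3 read 8.72, 8.80 and 8.75 in μ-g, 8.52, 8.52 and 8.57 in 1-g, 8.65, 8.54 and 8.75 in 2-g and 8.10, 8.20 and 8.11 in control cells. Against control, Sesn3 shifted by 0.61 in μ-g, 0.40 in 1-g and 0.51 in 2-g (SE 0.06), with 0.32 between the nearest magnet and control arrays. Sesn1 shifted by 0.35 in μ-g, 0.26 in 1-g and 0.37 in 2-g (SE 0.10). The third sestrin, Sesn2, was at 0.11 in μ-g, 0.10 in 1-g and −0.16 in 2-g (SE 0.22). Trp53inp1, a p53-induced nuclear protein, shifted by 0.52 in μ-g, 0.43 in 1-g and 0.27 in 2-g (SE 0.13) with overlap, and Polk, a polymerase that copies damaged DNA, by 0.39 in μ-g, 0.32 in 1-g and 0.29 in 2-g (SE 0.09). These 5 were raised members out of 23 listed p53 targets measured. Sesn3 is on the list of FOXO targets as well, as the 1 member among the 20 measured. Of the 22 p53 targets above 6.5, 17 lay above control, with a median of 0.12 (7362 of 12809 over all genes above 6.5, median 0.02). In the limma fit 3, 2 and 3 of the 23 were called higher in set 1, set 3 and set 2 (0.436%, 0.176% and 1.68% of all genes), and 0 lower. Castor2, a relative of the arginine sensor that binds the mTORC1 regulator GATOR2, also shifted by 0.40 in μ-g, 0.43 in 1-g and 0.51 in 2-g (SE 0.07), but its other cluster, at a level of 6.99, by 0.09, 0.15 and 0.25. Castor1 shifted by 0.01 in μ-g, 0.04 in 1-g and −0.16 in 2-g (SE 0.09). Ddit4l, a further inhibitor of mTORC1, had a mean shift of 0.34.

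DNA damage tolerance genes formed a small group beside Polk. Rev3l, the catalytic subunit of polymerase ζ, shifted by 0.42 in μ-g, 0.26 in 1-g and 0.41 in 2-g (SE 0.09), while its partners Rev1 and Mad2l2 shifted by 0.08 in μ-g, 0.03 in 1-g and 0.03 in 2-g (SE 0.05) and by −0.20 in μ-g, −0.18 in 1-g and −0.20 in 2-g (SE 0.09). Hltf, a helicase of stalled replication forks, Rnf169, a ubiquitin reader at DNA breaks, and Parpbp, an inhibitor of recombination, had mean shifts of 0.33, 0.35 and 0.28. None of these 5 raised genes overlapped control, as was so for 62 of the 97 raised genes and 3.68% of genes above 6.5.

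Vcan, the large chondroitin sulfate proteoglycan versican, read 10.98, 10.14 and 10.79 in μ-g, 10.74, 10.35 and 10.72 in 1-g, 10.73, 10.41 and 10.76 in 2-g and 10.33, 9.88 and 10.27 in control cells. Against control, Vcan shifted by 0.48 in μ-g, 0.44 in 1-g and 0.47 in 2-g (SE 0.20). Replicate 2 was the lowest Vcan array in every group, and the μ-g replicate 2 value of 10.14 lay within the control range. Agrn, the heparan sulfate proteoglycan agrin, Csgalnact1 and Chst15, which start and sulfate chondroitin chains, and Sulf2, which removes sulfates from heparan sulfate, had mean shifts of 0.35, 0.37, 0.32 and 0.40. Of these 5, 2 did not overlap, against 62 of the 97 raised genes and 3.68% of genes above 6.5. Other secreted or matrix members were Ccn5, a matricellular protein (0.37), Hgf, hepatocyte growth factor (0.34), and P4ha3 and Fkbp14, which act on collagen in the ER (0.43 and 0.37).

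The raised members included 6 genes of the mitotic apparatus and 8 of the centriole and cilium. Besides Psrc1, they included Cenpf and Knl1 of the kinetochore (mean shifts 0.37 and 0.31), Hmmr (0.30) and Spice1 (0.31) of the spindle, and Gas2l3 of late cytokinesis (0.35). Cenpf read 9.49, 9.23 and 9.54 in μ-g, 9.41, 9.60 and 9.25 in 1-g, 9.60, 9.30 and 9.29 in 2-g and 9.37, 9.05 and 8.70 in control cells. Against control, Cenpf shifted by 0.38 in μ-g, 0.38 in 1-g and 0.36 in 2-g (SE 0.15), and its control replicate 1 (9.37) lay within the range of the magnet arrays. Of 31 cell cycle genes measured, Cenpf was the 1 member. Of the 31, 20 lay above control with a median of 0.04 (7362 of 12809 over all genes above 6.5, median 0.02). Wdr78, which helps to assemble axonemal dynein, read 7.73, 7.62 and 7.67 in μ-g, 7.58, 7.64 and 7.73 in 1-g, 7.91, 7.77 and 7.89 in 2-g and 7.43, 7.18 and 7.08 in control cells. Against control, Wdr78 shifted by 0.44 in μ-g, 0.42 in 1-g and 0.62 in 2-g (SE 0.08). Ttll5, a polyglutamylase of tubulin, read 9.42, 9.36 and 9.44 in μ-g, 9.45, 9.43 and 9.43 in 1-g, 9.39, 9.38 and 9.33 in 2-g and 9.09, 9.05 and 9.02 in control cells. Against control, Ttll5 shifted by 0.35 in μ-g, 0.38 in 1-g and 0.31 in 2-g (SE 0.04), the lowest SE of any raised gene. Cep128, Cspp1, Rpgrip1l, Intu, Ift80 and Dzip1 completed the group of 8 ciliary genes. Of these 8, 6 did not overlap, near the share of all raised genes (62 of 97, and 3.68% of genes above 6.5). For Cspp1 the array holds 13 other clusters, nearly all with positive shifts (−0.02 to 0.45). Among other members with a second cluster, that of Ralgapa1, at a level of 6.08, went the other way, at −0.27 in μ-g, −0.17 in 1-g and −0.16 in 2-g, and those of Lrrk2 and Gm5486 lay below 6.5 with shifts of −0.01 to 0.15.

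Members of fuel and lipid metabolism were also raised. Pdk4, the kinase that turns off pyruvate dehydrogenase in fasting, shifted by 0.30 in μ-g, 0.35 in 1-g and 0.43 in 2-g (SE 0.12), while Pdk1, a target of the hypoxia factor HIF-1, lay at −1.47 in μ-g, −1.30 in 1-g and 1.04 in 2-g (SE 0.25), and Pdk2 and Pdk3 at mean shifts of 0.01 and −0.11. Lpin1, a phosphatidate phosphatase, shifted by 0.32 in μ-g, 0.30 in 1-g and 0.35 in 2-g (SE 0.08), and Pik3r1, the regulatory subunit of PI3 kinase, by 0.34 in μ-g, 0.26 in 1-g and 0.45 in 2-g (SE 0.08). No gene of the lists of hypoxia response (34 measured) and glycolysis (20 measured) was a member. Stxbp4, Marf1 and Exoc4 were other members with large and even shifts and no overlap, with means of 0.49, 0.40 and 0.39. The SE of each of their shifts was 0.08, 0.06 and 0.06. Nbeal1 and the pseudogene BC023105 had means of 0.44 and 0.47 but overlapped control (SE of each shift 0.19 and 0.25). Closest to the limit of 0.25 were Parp11 and Ccdc18 (0.2501 and 0.2504), with 1700030J22Rik (0.2496) and Dnal1 (0.248) outside. Sned1 was outside by its span of 0.56.

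Not all members stood clear of the spread between arrays. In 20 of the 35 lowered genes every magnet array lay below every control array, as in 1.26% of genes above 6.5, and in 62 of the 97 raised genes every magnet array lay above every control array, as in 3.68%. Compared with the control of the same replicate number, all 9 magnet arrays lay on the members' side in 34 lowered genes (4.93% of genes above 6.5) and 93 raised genes (11.4%). Since the rule used these differences, nothing is read from these counts. The mean deviation of the lowered genes from their 12-array means was −0.19 to −0.02 over the 9 magnet arrays and 0.26 to 0.35 over the 3 control arrays. For the raised genes it was 0.00 to 0.14 over the magnet arrays and −0.32 to −0.24 over the control arrays.

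**Figure D4:**
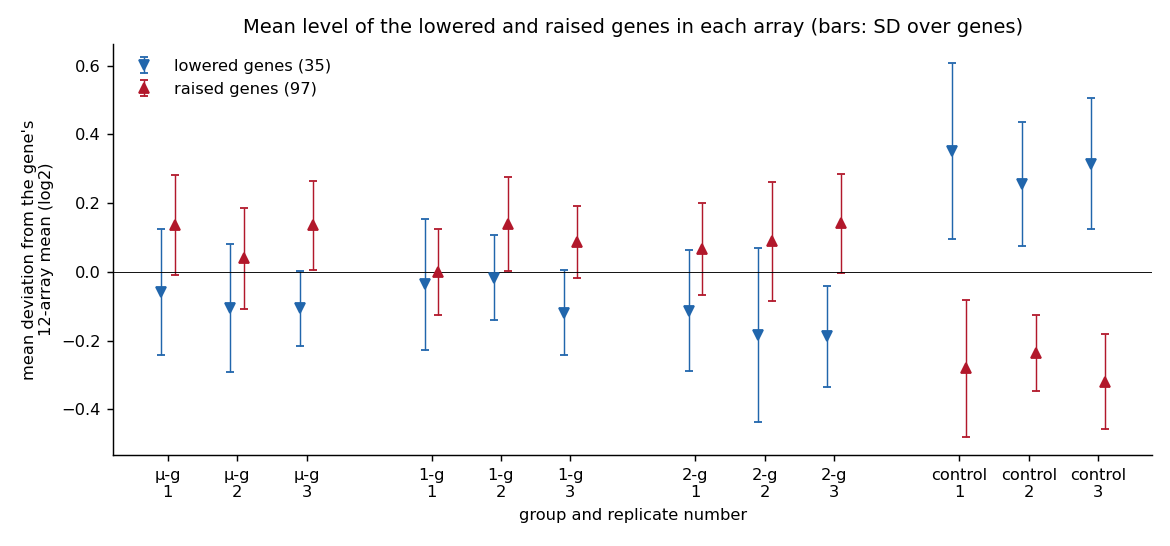
Mean deviation of the 35 lowered and 97 raised genes from each gene's 12-array mean (y axis, log2), in each array (x axis, by group and replicate number); bars give the SD over genes. The 3 control arrays stand apart from the 9 magnet arrays, with lowered genes at 0.26 to 0.35 and raised genes at −0.32 to −0.24.

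In the limma fit of all 12 arrays, with Benjamini-Hochberg adjustment over 19938 genes and adjusted p under 0.05, set 1 called 8 lowered and 22 raised members, where 0.386% of all genes were called lower and 0.436% higher. Set 3 called 3 lowered and 14 raised members (0.145% and 0.176% of all genes). Set 2 called 16 and 34 (1.43% and 1.68%). All shares here are over 19938 genes, while members could come only from the 12809 above 6.5. Of those 12809, 76 were called lower and 87 higher in set 1, 28 and 35 in set 3, and 281 and 334 in set 2. With the replicate number as a block, which the arrays bear out for set 2 and set 3, the counts were 32 and 74 in set 2 (4.32% and 5.06% of all genes) and 17 and 41 in set 3 (0.737% and 1.03%). In set 1, whose numbers did not all pair, they were 25 and 65 (1.56% and 3.14%). The genes called in all 3 sets were Mir18, Igsf5 and Sat1, all lower, and Castor2, Ccng1, D3Ertd751e, Exoc4, Marf1, Ppip5k1, Psrc1, Sesn3, Stxbp4 and Ttll5, all higher. Igsf5, an immunoglobulin-family junction protein, and Ppip5k1, an inositol pyrophosphate kinase, are named here because of these calls. The rule used these contrasts, so the counts are a description. They also turned on single arrays. Set 1 called 30 members with all arrays, 2 and 1 without μ-g replicate 1 and 3, and 11 to 19 without any control array or without 2-g replicate 3, of which 11 to 19 were among the 30. Without μ-g replicate 2 it called 50, of which 28 were among the 30. Set 2 called 50 members with all arrays, 23 without 2-g replicate 3 and 27 without control replicate 3, all among the 50. Set 3 called 17 members with all arrays and 0, 0 and 1 without 1-g replicate 1, 2 and 3 (109 and 98 for the first pair by unadjusted P under 0.05). Without any control array, μ-g replicate 1 or 3, or 2-g replicate 1 or 3, it called 2 to 11, of which 1 to 11 were among the 17.

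Membership turned on single arrays for many genes. When each of the 12 arrays was left out in turn, 10 lowered and 29 raised genes met the rule every time. The count of lowered genes went to 57, 66 and 53 without control replicate 1, 2 and 3, and that of raised genes to 234 and 161 without control replicate 1 and 2; no other array moved either count by more than 1.5 times. The 10 were Crct1, Mir18, Catsperz, Milr1, Cirbp, Ufsp1, Arrdc4, S100b, Arl11 and Igsf5. The 29 included Htra4, Psrc1, Saa2, Slc5a3, D3Ertd751e, Gem, Vcan, Stxbp4, Wdr78, Nbeal1, Sesn3, Oas2, Castor2, C4b, Marf1, Exoc4, Pros1, Mov10, Ttll5, Dzip1 and Intu. Rbm3, Saa4, Ccng1 and the other p53 targets besides Sesn3 dropped out at least once.

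The replicate numbers are balanced over the groups, so a difference between them is independent of the values that chose the members. By limma's F test of the replicate number, adjusted over all genes, 9 of the 35 lowered and 17 of the 97 raised members differed between numbers. Of all 19938 genes, 10.1% did. Members could come only from the 12809 genes above 6.5, for which the share was not counted, so no excess is read from these counts. Ropn1l differed the most by adjusted p (0.000415), with replicate 2 at 0.37 and replicates 1 and 3 at −0.23 and −0.14 from the gene's mean. Plaur lay at 0.25, −0.25 and 0.00 in replicates 1, 2 and 3 (adjusted p = 0.000476), and Vcan at 0.19, −0.31 and 0.13 (adjusted p = 0.00352). Ccn5 and Sulf2, both raised, were lowest in replicate 1, at −0.33 and −0.28. The range between replicate numbers was larger than the mean magnet shift in these 5 genes, while Mir18, Psrc1, Sesn3 and Ttll5 were not called.

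The lowered and raised members differed in the length of their genes. The genomic span from RefSeq (GRCm38.p6) had a median of 10.5 kb in the 31 protein-coding lowered genes and 55.6 kb in the 95 protein-coding raised genes, against 21.9 kb in the 12252 protein-coding genes above 6.5. In 5 groups of equal size by span, from short to long, the lowered genes numbered 13, 11, 4, 2 and 1 and the raised genes 5, 10, 13, 26 and 41. The same order held over all protein-coding genes above 6.5, with a median shift of the magnet mean of −0.03 in the shortest genes and 0.08 in the longest. Across the 12252 genes, which share libraries and are not independent replicates, Pearson's r of log span with the shift was 0.35 in μ-g, 0.29 in 1-g and 0.21 in 2-g. Control arrays differed from each other along the same axis, with r of 0.23 for replicate 1 and −0.20 for replicate 3, each against its 2 fellows. When the shift of each gene was taken relative to the median of its group of like span, 50 lowered genes met the rule, 31 of them members, and 57 raised genes, 52 of them members.

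**Figure D5:**
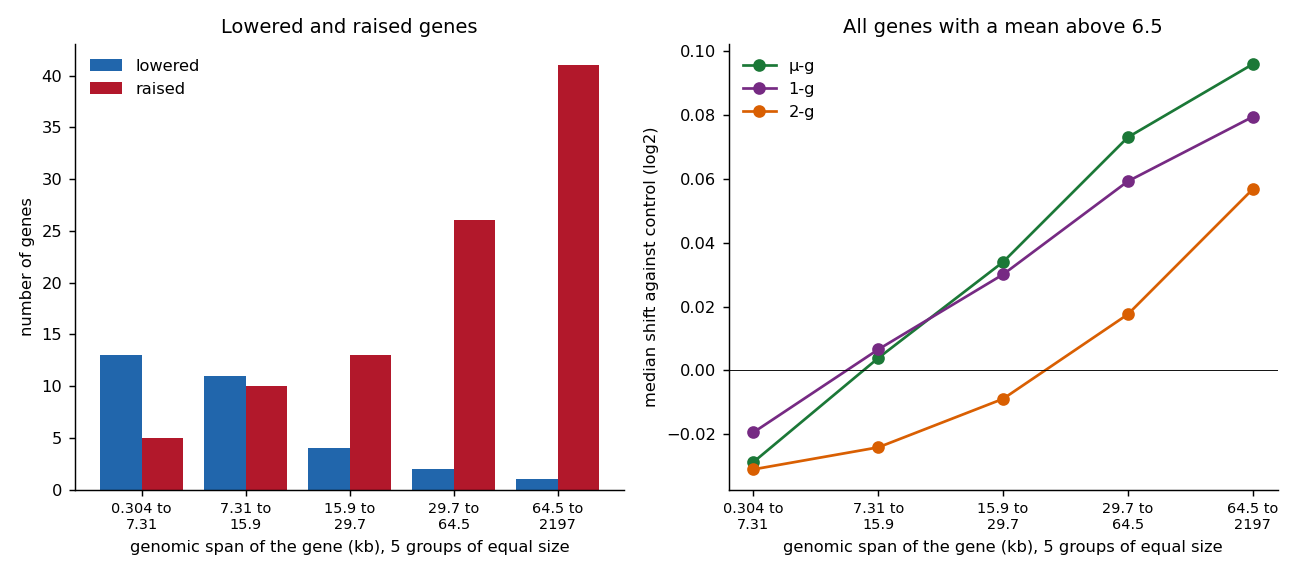
Left, number of lowered and raised protein-coding genes in 5 groups of equal size by genomic span (x axis, kb; 12252 protein-coding genes above 6.5). Right, median shift of all genes of the group against control (y axis, log2) in μ-g, 1-g and 2-g. Raised genes increase with span (5 to 41), lowered genes decrease (13 to 1), and the median shift is highest in the longest genes in all 3 groups.

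Some members are neighbours on a chromosome. Pairs with no more than 5 RefSeq genes between them were Oas2 and Oas3, Cenpf and Ptpn14, Hmmr and Ccng1, Saa4 and Saa2, Cacna2d1 and Hgf, Abcd2 and Lrrk2, Brwd3 and Hmgn5, all raised, Rbm3 and Porcn, both lowered, and Gm5486 with Bbx, which went opposite ways. Promoter windows were matched for 27 lowered and 74 raised genes. The AP-1 motif TGANTCA, searched on both strands, was in the windows of 5 lowered genes (18.5%), namely Plaur, Ddit3, Il1rn, Bpifc and Gm4832, and of 2 raised genes (2.70%), against 6.29% of genes above 6.5. Many motifs were searched with no test, and a match is not a binding site. The windows of Plaur and Ddit3 are shown with the motif in capitals, as the pair of these genes with the highest levels.
Plaur (chr7:24462233-24462532, plus strand): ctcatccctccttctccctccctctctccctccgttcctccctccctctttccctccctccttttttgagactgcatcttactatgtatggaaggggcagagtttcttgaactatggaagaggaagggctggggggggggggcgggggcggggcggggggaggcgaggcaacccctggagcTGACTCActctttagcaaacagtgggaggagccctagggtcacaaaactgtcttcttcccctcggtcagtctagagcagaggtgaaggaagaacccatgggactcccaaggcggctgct
Ddit3 (chr10:127290543-127290842, plus strand): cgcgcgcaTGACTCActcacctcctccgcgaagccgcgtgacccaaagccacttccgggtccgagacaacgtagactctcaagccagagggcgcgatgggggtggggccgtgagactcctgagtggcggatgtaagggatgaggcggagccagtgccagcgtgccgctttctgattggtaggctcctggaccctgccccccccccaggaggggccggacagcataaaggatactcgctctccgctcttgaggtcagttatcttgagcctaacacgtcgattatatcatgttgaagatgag
The GC box GGGCGG was in 37.0% of lowered, 60.8% of raised and 67.9% of genes above 6.5.

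Between magnet groups the rule had limited the differences. In the 12-array fit 2.88% of all genes were called in set 4, which sets μ-g against 2-g, and 2.26% between 2-g and 1-g, and 2 members, Il1rn and Spry3, in each. Spry3, of the Sprouty family of growth factor signalling inhibitors, read 9.05, 8.97 and 8.89 in μ-g, 8.96, 8.83 and 8.98 in 1-g, 9.21, 9.28 and 9.22 in 2-g and 8.65, 8.71 and 8.60 in control cells, and was highest in 2-g. With the replicate block 4 lowered and 6 raised members were called in set 4, where 9.18% of all genes were, and 5 and 2 between 2-g and 1-g (7.57%). The rule used these differences, so nothing is read from the counts. Between μ-g and 1-g limma called 0% of all genes (460 at an unadjusted P under 0.05, and 0 with the replicate block). In 24 of the 35 lowered and 45 of the 97 raised genes the largest of the 3 shifts was that of 2-g, and 1-g held it in 4 and 13. The rule used these shifts, and over all genes above 6.5 they were also wider in 2-g. Their 5th to 95th percentiles ran from −0.24 to 0.27 in 2-g, against −0.16 to 0.22 in 1-g. So nothing is read from which group held the largest shift.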

How the data were processed

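Expression in MLO-Y4 cells was read from 12 Affymetrix Mouse Gene 1.0 ST arrays. The authors deposited log2 values after background correction, normalization and summarisation with RMA, for 28856 transcript clusters; their genome build is not given in the sources used for this work. Array medians ran from 7.04 to 7.12, r across clusters from 0.996 to 0.998 within groups, and no arrays held identical values. The number of arrays limits the precision.

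Of the clusters, 21789 carried 1 symbol, 1621 several and 5446 none or were not listed. Symbols were updated through gene identifiers (83 had no current entry), and for 999 genes with several clusters the one with the highest mean was taken. The 4 group means were estimated on every cluster with limma 3.58.1 in R 4.3.3 (lmFit, eBayes; 8 residual and 3.90 prior degrees of freedom) and p-values were adjusted after Benjamini and Hochberg over 19938 genes. The fit was tested on simulated data. SE are those of a difference of 2 groups of 3 arrays. The smallest two-sided p of an exact test of 3 arrays against 3 is 0.1.

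The members and the gene lists were chosen with earlier results of these data known. By rule the text names members of the lists, the 15 lowered and 15 raised genes with the largest smallest shift and the genes nearest the limits, with values per array for 8 of each; other genes and the role groups were named after values were seen. Deviations of same-numbered arrays from their group means correlated at 0.34 on average, and at −0.17 otherwise. Every same-numbered pair was above 0.1 but μ-g and control replicate 3 (0.02), so the numbers pair samples in every comparison but set 1. What the numbers stand for is not stated in these sources. Alternatives were a replicate block, 6 arrays, an intensity trend with robust prior, centring, quantile normalization, other levels, medians, mean of clusters, the unadjusted P under 0.05 with more than 1.5-fold of the methods, and each array left out.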

Additional observations from a re-analysis of the deposited data

How the results depend on the processing

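The number of lowered genes was 35 and went to 55 with quantile normalization; it ran from 28 to 66 when single arrays were left out, with 66 without control replicate 2. The number of raised genes was 97, went to 156 with medians of 3 arrays and to 57 relative to genes of like genomic span (an alternative added after the data were seen), and ran from 84 to 234, with 234 without control replicate 1. Centring, the mean of all clusters and no level limit kept both counts within 1.5 times. Members called in set 1, set 2 and set 3 were 30, 50 and 17. With the replicate block they were 90, 106 and 58, and all calls of the fit without it were among them. With only the 6 arrays they were 0, 25 and 0 in limma (116 in set 1 and 117 in set 3 at an unadjusted P under 0.05). At unadjusted P under 0.05 and more than 1.5-fold they were 6, 15 and 3, and set 3 had 30 when only genes above 6.5 were tested. Without single arrays they ran from 1 (without μ-g replicate 3) to 50 in set 1, from 23 (without 2-g replicate 3) to 55 in set 2, and from 0 (without 1-g replicate 1 or 2) to 17 in set 3, where 109 and 98 passed at an unadjusted P under 0.05. The members that differed between replicate numbers, 26, numbered 25 to 30 under the alternatives. None of the 63 genes named by rule changed direction under centring, quantile normalization or without any array. Most of them are members, whose direction the rule had set, so nothing is read from this. The mean shift of 1, Ufsp1, moved by more than the SD between arrays (−0.33 without control replicate 3). Which of these settings reflects the cells was not tested.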
